A study of Mus musculus with 18 samples.

Results

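Hox genes encode homeodomain transcription factors, and the mouse carries them in 4 clusters, Hoxa, Hoxb, Hoxc, and Hoxd. Every protein-coding gene whose symbol is Hox followed by a cluster letter and a paralog number was taken, which gave 39 members among the 48023 genes of the count table. By GENCODE release M21 on GRCm38, Hoxb lies at chr11:96194316-96368256, Hoxc at chr15:102921103-103036852, and Hoxd at chr2:74668310-74765142. The study treated an immortalized line of brown preadipocytes, made from the stromal vascular cells of mouse brown fat, with vehicle (Veh) or FGF6, a secreted fibroblast growth factor, for 4, 8, or 24 h. Total RNA gave 18 libraries, 3 for each of the 6 combinations of treatment and time. All groups share the same undifferentiated line, so every value below comes from a single immortalized population, and the labels carry no genotype or other agent. The labels do not say that the libraries of a group came from separate cultures, so the p-values measure the spread between these libraries.

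Within a cluster, the genes at the low-numbered (anterior) end are switched on first and farthest toward the head of the embryo, and those at the high-numbered (posterior) end later and nearer the tail. Cells taken from an adult tissue usually keep the Hox combination of the place they came from, which serves as a positional code. Hox proteins bind DNA together with TALE cofactors of the PBX and MEIS families, and Polycomb and Trithorax complexes keep the clusters silent or active.

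The libraries held 24327816 to 33471980 counts, and the counts on all Hox genes together ranged from 4948 to 13424. Each library lay nearest to the mean of its own group. The preadipocyte or stromal markers Pdgfra, Pdgfrb, Col1a1, and Col3a1 were counted at least 2460, 3670, 11453, and 9787 times in every library, whereas Dlk1, also on that list, was at 0 throughout. Of the markers of other cells, Pecam1 (endothelial) had at most 7 counts, Ptprc (leukocyte) 2, Epcam (epithelial) 5, Sox10 (glial) 2, and Myf5 (myogenic) none. Other genes of the same lists were counted, with 696 to 1315 counts of Pax3, 25 to 111 of Myod1, and 8 to 153 of Myog (myogenic), 82 to 523 of Cd68 and 9 to 128 of Csf1r (macrophage), 0 to 114 of Cdh5 (endothelial), and 19 to 110 of Tubb3 (neural). Of the adipocyte markers, Lpl and Fabp4 were abundant, whereas Adipoq did not exceed 23 counts, Ucp1 25, and Cidea 1.

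The line expressed a broad Hox code that was fullest in the Hoxc cluster and nearly lacked Hoxd. Of the 39 genes, 26 had enough counts to be tested, namely 9 of 11 in Hoxa, 8 of 10 in Hoxb, all 9 in Hoxc, and 0 of 9 in Hoxd. The 13 others were close to absent. In Hoxd, Hoxd8 had 2 to 12 counts per library, Hoxd9 0 to 3, Hoxd11 a single count in 1 library, and Hoxd1, Hoxd3, Hoxd4, Hoxd10, Hoxd12, and Hoxd13 none. Outside it, Hoxa11 had 0 to 9 counts, Hoxa13 and Hoxb1 0 to 1, and Hoxb13 0 to 3. A count of 0 allows up to 3 counts, or 0.0905 to 0.126 CPM (counts scaled to library depth) depending on the library, and this covers counting error only. Exons of Hoxd3 and Hoxd4 overlap on the same strand, so reads of either could have gone uncounted.

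Levels of different genes were compared as RPKM, which scales counts to library depth and exon length, in the 9 vehicle libraries, where the median gene tested had 5.15 RPKM. Hoxb9, a patterning gene of the rib cage, led with 31.5 ± 1.64 RPKM (SD, n = 9). Hoxc10, known from lumbar motor neurons and from subcutaneous fat, followed with 20.4 ± 3.33 RPKM. Next came Hoxc12 with 16.6 ± 3.61 RPKM, Hoxc13, a regulator of hair and nail keratins, with 13.7 ± 0.679 RPKM, Hoxc11 with 12.8 ± 0.387 RPKM, and Hoxc6, a gene of the thorax and forelimb level, with 12.3 ± 0.872 RPKM. The lowest tested members were Hoxa7, Hoxa10, and Hoxa9 with 0.831, 0.617, and 0.307 RPKM. Neighbours in this order mostly overlapped in their ranges over the 9 libraries. The ranges were separate only between Hoxb9 and Hoxc10, between Hoxb7 (10.8 RPKM) and Hoxc9 (7.75 RPKM), between Hoxa10 and Hoxa9, and between Hoxa9 and the untested Hoxa11. With the longest transcript as the length in place of all exons, 5 of these 6 leading genes remained among the 6 highest, and Hoxb7 took the place of Hoxc11.

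**Figure D1:**
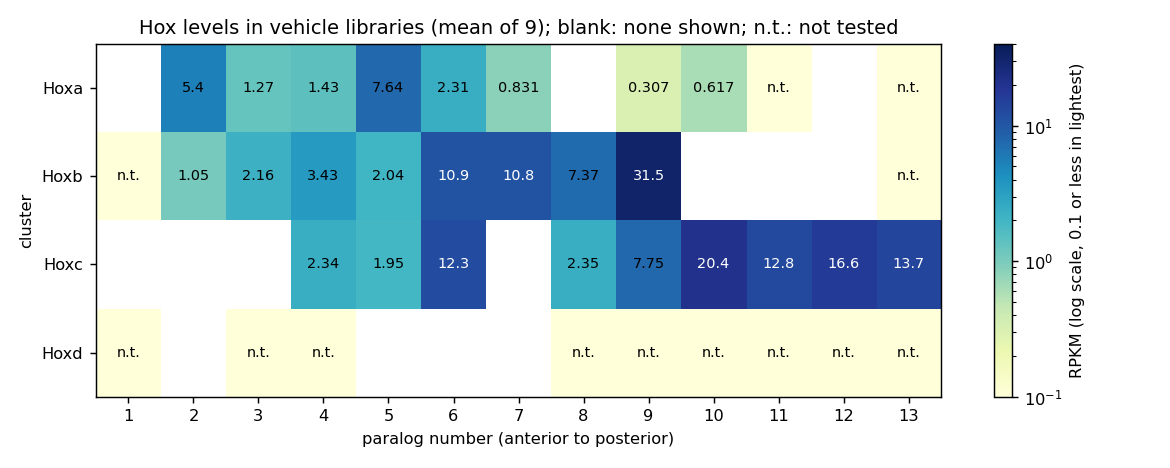
Mean level of Hox genes in the 9 vehicle libraries, in RPKM on a log colour scale, by cluster (rows) and paralog number (columns). All Hoxc genes, paralogs 4 to 13, carry a value, with 20.4 RPKM at Hoxc10, Hoxb peaks at Hoxb9 with 31.5 RPKM, and no Hoxd gene had enough counts to be tested.

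By cluster, Hoxc made up 50.0% ± 1.21 (SD, n = 9) of the summed Hox RPKM in the vehicle libraries, Hoxb 38.5% ± 2.15, Hoxa 11.5% ± 1.15, and Hoxd 0.0561% ± 0.0163. By position, the posterior paralogs 9 to 13 made up 57.5% ± 1.35, the central paralogs 5 to 8 32.5% ± 1.38, and the anterior paralogs 1 to 4 9.99% ± 0.284. Hoxc alone carried the last paralog groups, with Hoxc11, Hoxc12, and Hoxc13 as the only tested genes of groups 11, 12, and 13. The posterior part also held Hoxb9, with 31.5 RPKM, and the low Hoxa9 and Hoxa10.

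The summed level of all Hox genes together was lower with FGF6 at each time. At 4 h it was 170.2, 169.9, and 166.6 RPKM in the vehicle libraries and 94.8, 94.0, and 90.7 RPKM in the FGF6 libraries. The sums at 8 h were 180.1, 180.1, and 178.0 RPKM with Veh and 111.7, 108.4, and 105.3 RPKM with FGF6. By 24 h they were 201.5, 189.1, and 187.8 RPKM with Veh against 162.0, 160.9, and 170.4 RPKM with FGF6. The groups did not overlap at any time, and the gap between them was narrowest at 24 h. In these bulk libraries, fewer cells expressing a gene and less RNA per cell cannot be told apart. Within the sum, the Hoxb part was higher with FGF6 at 24 h, with 79.6, 78.0, and 83.7 RPKM against 73.4, 68.15, and 67.1 RPKM with Veh. This was not a rise of the whole cluster. By the edgeR test used below, 2 of its 8 tested genes were higher at 24 h, 2 were lower, and 4 did not pass. Hoxb7, 1 of the higher genes, had a mean of 20.2 RPKM with FGF6 against 10.1 RPKM with Veh. The Hoxb share of the sum at 24 h was 36.1% ± 0.348 (SD, n = 3) with Veh and 48.9% ± 0.379 with FGF6, and the Hoxc share 50.9% ± 0.302 and 40.7% ± 0.576. The Hoxb share was already higher with FGF6 at the earlier times, 47.5% against 40.9% with Veh at 4 h and 48.6% against 38.5% at 8 h. The mean Hoxb sum itself was lower with FGF6 at those times, 44.3 against 69.1 RPKM with Veh at 4 h and 52.7 against 69.0 RPKM at 8 h.

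**Figure D2:**
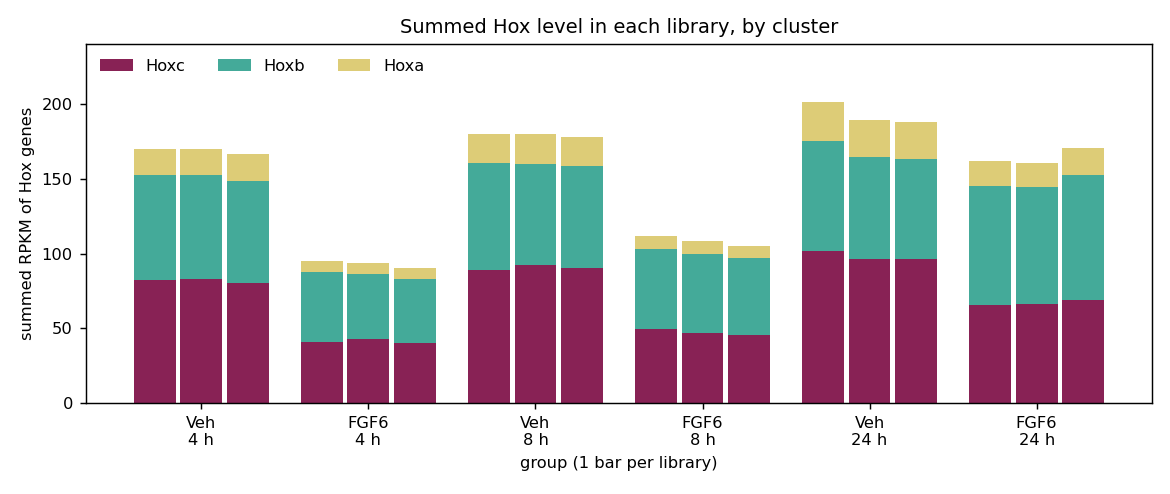
Summed RPKM of the Hox genes in each of the 18 libraries, stacked by cluster (Hoxd, under 0.2 RPKM, is not drawn). The FGF6 bars are lower than the vehicle bars at 4, 8, and 24 h, and their Hoxb part at 24 h, 78.0 RPKM or more, lies above that of the vehicle bars.

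The first question was which Hox genes FGF6 moved after 4 h. Of the 26 tested genes, 22 were lower with FGF6, 0 were higher, and 4 did not pass the threshold (edgeR's quasi-likelihood test, false discovery rate (FDR) under 0.05 over all 15071 genes tested). Over all genes tested, 34.2% were lower and 28.6% higher at this time. The 0 higher genes stayed at 0 with an unadjusted p under 0.05, with limma-voom, and with DESeq2. The median log2 fold change of the Hox genes was -0.93, against -0.05 for all genes, and 25 of 26 values were below 0. At least 2-fold lower were 12 Hox genes, a change that 6.38% of all genes showed. The libraries did not overlap between treatments for 24 of the 26, against 66.2% of all genes. Scaling by library size alone shifted the median of all genes by -0.10 and took the share of higher genes among all called from 45.5% to 33.3%. With it 0 Hox genes were higher, but a downward shift could hardly have added any, so it does not test that count.

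All 9 tested Hoxa genes fell at 4 h, with a median log2 fold change of -1.34. In Hoxc, 8 of 9 fell (median -0.76), and in Hoxb 5 of 8 fell (median -0.68). By position, 5 of 8 anterior, 9 of 10 central, and 8 of 8 posterior genes fell. The 4 genes that did not pass were Hoxb2, Hoxb4, Hoxb7, and Hoxc4, with log2 fold changes of -0.24, -0.16, 0.02, and -0.21 and edgeR adjusted p-values of 0.229, 0.266, 0.815, and 0.125. The sign for Hoxb7 turned to -0.081 with library sizes alone.

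At 8 h the picture was similar. Lower were 23 of the 26 genes and higher was 1, Hoxb7, whereas 38.4% of all genes were lower and 32.4% higher. The Hox median was -0.79, against -0.05 for all genes. Lower by at least 2-fold were 9 (10.9% of all genes), and 22 of 26 did not overlap (73.8% of all genes). Hoxa4 and Hoxb4 did not pass, with log2 fold changes of -0.29 and 0.13 and edgeR adjusted p-values of 0.123 and 0.303. The calls of Hoxb2 and Hoxc4 at 8 h were marginal, with edgeR adjusted p-values of 0.0256 and 0.0365. The call of Hoxb2 was lost without replicate 2 or 3 of either group at 8 h (adjusted p = 0.0851 to 0.116 by edgeR), and that of Hoxc4 without any of 11 libraries, among them replicate 3 of the FGF6 group and replicates 1 and 2 of the vehicle group at 8 h (0.072 to 0.3).

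At 24 h calls went both ways. Higher were 5 genes, Hoxa4, Hoxa7, Hoxb4, Hoxb7, and Hoxc4, lower were 12, and 9 did not pass. Of all genes, 35.9% were higher and 37.9% lower. The Hox median was -0.31, against -0.02 for all genes. Only Hoxb4 was at least 2-fold higher (7.44% of all genes) and Hoxa2, Hoxa10, and Hoxc12 were at least 2-fold lower (15.3% of all genes), and 17 of 26 did not overlap (74.8% of all genes). By cluster, 2 genes rose and 4 fell in Hoxa, 2 rose and 2 fell in Hoxb, and 1 rose and 6 fell in Hoxc. The log2 fold changes of all 8 posterior genes were below 0, and 5 of them passed.

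The counts at 24 h depended on single libraries and on the fit. Hoxa6 became lower without replicate 1 of the FGF6 group (log2 value -0.56), and Hoxb2 and Hoxb5 higher without replicate 1 of the vehicle group (0.46 and 0.34). An offset for GC content and exonic length moved the median of all genes at 24 h by 0.17 and the share of higher genes among all called from 48.7% to 60.3%. With it, 11 Hox genes were higher and 7 lower, while 11361 of all 15071 genes tested were called, 60.3% of them higher. These Hox counts therefore do not set the Hox genes apart from all genes. The Hox median was -0.03, against 0.15 for all genes. Hoxb3, Hoxb8, Hoxc5, Hoxc8, and Hoxc9 lost their lower calls, whereas Hoxb2, Hoxb5, Hoxb6, Hoxb9, Hoxc6, and Hoxc11 became higher. Adding the shift of the all-gene median to the log2 fold changes of Hoxb9, Hoxc6, and Hoxc11 gives 0.11, 0.047, and 0.099. With the offset itself the values were larger, 0.24, 0.17, and 0.22, and the cause of that difference was not tested. The calls of the other 15 genes did not change under the offset, among them the higher calls of Hoxa4, Hoxa7, Hoxb4, Hoxb7, and Hoxc4 and the lower calls of Hoxa2, Hoxa3, Hoxa5, Hoxa10, Hoxc10, Hoxc12, and Hoxc13.

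**Figure D3:**
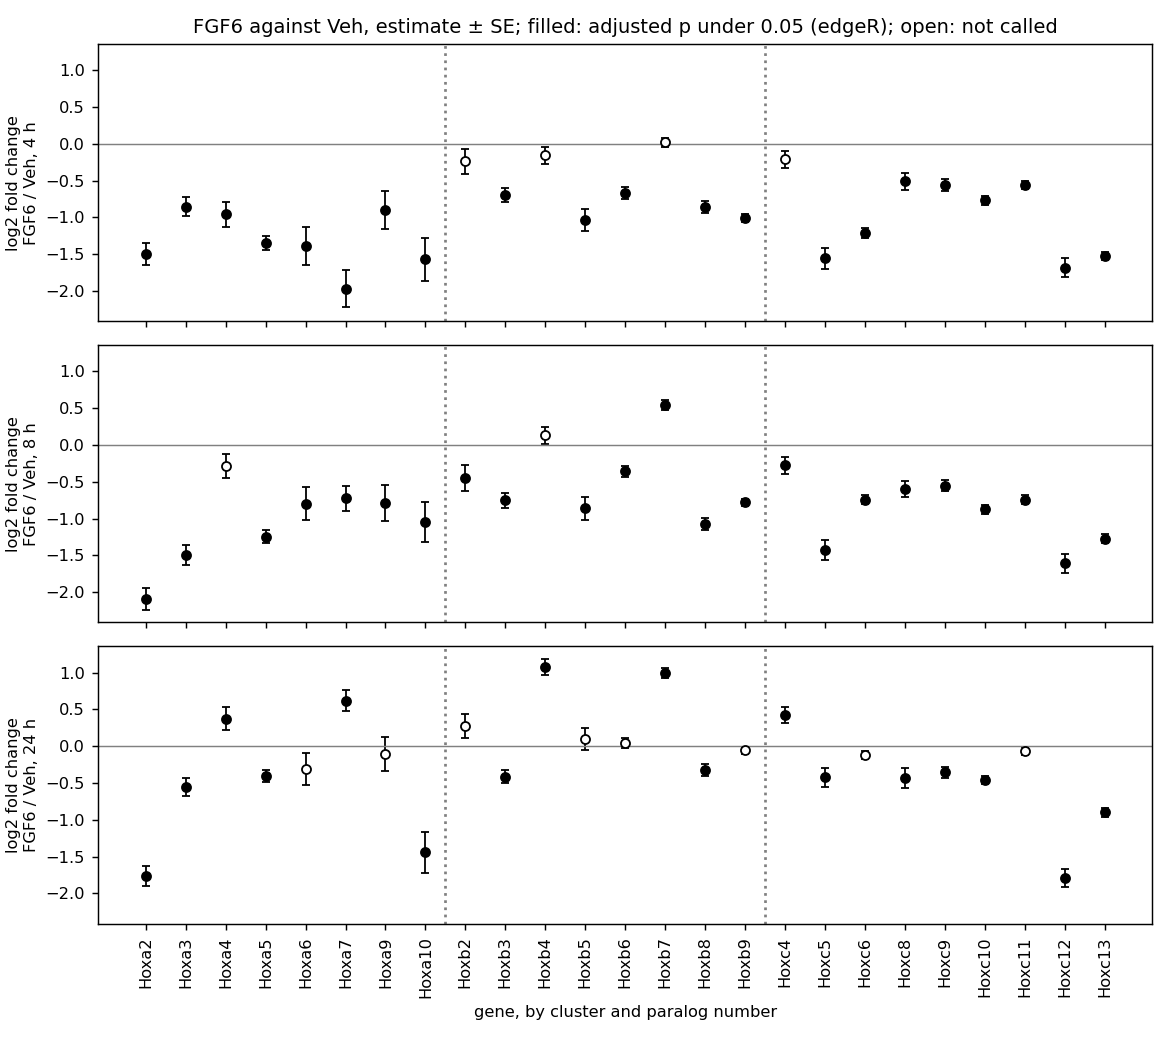
Log2 fold change of FGF6 against Veh ± SE for 25 tested genes at 4, 8, and 24 h (panels from top to bottom), ordered by cluster and paralog number, with filled points at an edgeR FDR under 0.05. At 4 h 21 points are filled below 0 and none above, and at 24 h 5 are filled above 0 and 12 below.

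**Figure D4:**
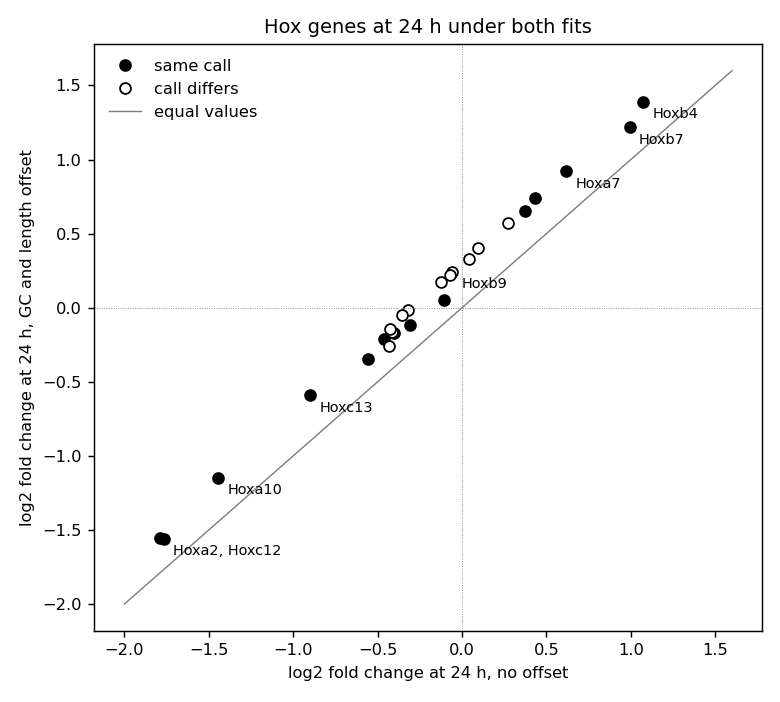
Log2 fold change of FGF6 against Veh at 24 h for 25 tested genes without (horizontal) and with (vertical) the offset for GC content and exonic length, with open points where the call differs. All points lie above the line of equal values, and the 11 open points run from -0.43 to 0.27 without the offset and from -0.26 to 0.57 with it.

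Markers of the cells moved over the same hours. The summed level of the 12 preadipocyte or stromal markers was 4061 to 4247 CPM with Veh and 2542 to 2684 CPM with FGF6 at 4 h, and 6102 to 6542 CPM against 1588 to 1662 CPM at 24 h. Of the 11 tested, 8 were lower at 4 h (34.2% of all genes), 10 lower and 1 higher at 8 h (38.4% and 32.4%), and 9 lower and 2 higher at 24 h (37.9% and 35.9%). The summed adipocyte markers, mostly Lpl, were 1477 to 1612 CPM with Veh and 627.7 to 644.5 CPM with FGF6 at 4 h, and 1490 to 1645 CPM against 148.6 to 152.8 CPM at 24 h. Of the 5 adipocyte markers tested, 4 were lower and 1 was higher at 24 h (37.9% and 35.9% of all genes). The higher one was Ucp1, with a mean of 0 CPM over the vehicle libraries and a log2 fold change of 7.43 at 24 h (edgeR adjusted p = 3.34e-06). Myogenic markers summed to 45.2 to 47.6 CPM with Veh and 35.5 to 37.0 CPM with FGF6 at 4 h, glial or neural markers to 4.82 to 5.61 and 4.27 to 5.08 CPM, and macrophage or blood markers to 14.25 to 15.2 and 17.6 to 18.4 CPM. At 24 h these sums were 50.15 to 51.2 and 35.0 to 37.4 CPM, 2.52 to 2.61 and 4.89 to 5.22 CPM, and 6.39 to 7.92 and 3.32 to 3.96 CPM with Veh and FGF6. Endothelial markers summed to at most 5.65 CPM and epithelial markers to at most 2.57 CPM in any library, and the FGF6 range of both lay above the vehicle range at each time. The part of these markers in the Hox results was not tested.

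The promoter table of RefSeq (GRCm38.p6) held 22 of the 39 Hox genes, 10 of them tested. The 250 bases before the start are printed for Hoxa2, which stayed low, and for Hoxa7 and Hoxb4, which were higher at 24 h. They were searched on both strands for the letters TGATNNAT (a PBX-HOX site), TGACAG (MEIS), CCGGAA (ETS factors), and TGANTCA (AP-1), and matches are in capitals. Hoxa2 lies on the minus strand at chr6:52164832-52165081, Hoxa7 on the minus strand at chr6:52218574-52218823, and Hoxb4 on the plus strand at chr11:96318017-96318266, each written 5′ to 3′ along its gene. The RefSeq start of Hoxa7 lies inside the GENCODE gene, which reaches further upstream.
Hoxa2: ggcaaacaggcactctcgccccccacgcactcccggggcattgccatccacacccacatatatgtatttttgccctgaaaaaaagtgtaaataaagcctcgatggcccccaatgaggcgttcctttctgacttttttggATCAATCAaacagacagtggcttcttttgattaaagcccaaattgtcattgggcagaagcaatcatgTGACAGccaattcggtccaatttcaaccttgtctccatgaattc
Hoxa7: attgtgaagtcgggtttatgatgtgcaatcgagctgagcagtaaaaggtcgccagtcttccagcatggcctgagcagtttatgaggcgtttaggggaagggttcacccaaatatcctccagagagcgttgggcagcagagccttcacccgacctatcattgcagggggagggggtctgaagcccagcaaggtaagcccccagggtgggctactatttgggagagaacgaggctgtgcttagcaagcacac
Hoxb4: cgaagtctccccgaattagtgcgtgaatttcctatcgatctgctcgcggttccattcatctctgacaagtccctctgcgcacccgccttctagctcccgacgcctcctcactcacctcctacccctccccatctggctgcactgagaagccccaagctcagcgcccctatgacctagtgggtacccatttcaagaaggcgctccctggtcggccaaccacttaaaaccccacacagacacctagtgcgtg
Hoxa2 held 1 match to the PBX-HOX letters and 1 to the MEIS letters, and Hoxa7 and Hoxb4 held none of the 4. Of all 32851 promoters in the table, 7.68% held the PBX-HOX letters, 15.9% the MEIS letters, 12% the ETS letters, and 6.75% the AP-1 letters. Of the 24 Hox promoters, 4 held the PBX-HOX letters (Hoxa2, Hoxb8, Hoxb1, and 1 of 2 for Hoxd11), 2 the MEIS letters (Hoxa2 and Hoxa3), 1 the ETS letters (1 of 2 for Hoxa10), and 1 the AP-1 letters (the other for Hoxd11). A match describes letters and not a bound site.

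At the posterior end of Hoxc, Hoxc12 and Hoxc13 fell and stayed low. For Hoxc13, the last gene of the cluster, the levels at 4 h were 36.5, 34.5, and 34.4 CPM with Veh and 12.1, 12.5, and 12.1 CPM with FGF6. At 8 h they were 31.9, 31.9, and 32.2 CPM with Veh and 13.4, 13.6, and 12.7 CPM with FGF6, and at 24 h 35.1, 32.1, and 34.01 CPM with Veh and 16.8, 20, and 17.4 CPM with FGF6. Every FGF6 library was below every vehicle library, with log2 fold changes of -1.52 ± 0.060, -1.27 ± 0.060, and -0.90 ± 0.058 at 4, 8, and 24 h (edgeR adjusted p = 3.84e-17, 7.44e-16, and 3.07e-13). Hoxc12, its neighbour, had 13.3, 14.4, and 13.1 CPM with Veh and 4.4, 4.88, and 3.29 CPM with FGF6 at 4 h. The levels of Hoxc12 were 17.01, 16.9, and 14.8 CPM with Veh and 6.02, 5.65, and 4.15 CPM with FGF6 at 8 h and 23.5, 21.4, and 20.01 CPM with Veh and 5.398, 5.64, and 7.78 CPM with FGF6 at 24 h. Group means of Hoxc12 rose over time with both treatments, from 13.6 to 21.6 CPM with Veh and from 4.19 to 6.27 CPM with FGF6, without overlap at any time. The log2 fold changes were -1.68 ± 0.13, -1.61 ± 0.13, and -1.79 ± 0.12 at 4, 8, and 24 h (edgeR adjusted p = 4.64e-11, 2.04e-11, and 8.14e-13). The effect did not differ between 4 and 24 h, with a difference of -0.11 (edgeR adjusted p = 0.658).

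Hoxc11 and Hoxc10, next along the cluster, fell less. At 4 h Hoxc11 had 24.2, 26.1, and 26.7 CPM with Veh and 17.1, 17.9, and 17.1 CPM with FGF6, and at 24 h 25.8, 25.97, and 26.4 CPM with Veh and 23.7, 25.9, and 24.96 CPM with FGF6. The groups were apart at 4 h and overlapped at 24 h, with log2 fold changes of -0.56 ± 0.056 and -0.07 ± 0.054 (edgeR adjusted p = 3.3e-09 and 0.257), of which that at 24 h turned to 0.22 with the offset, which moved the median of all genes upward, and to 0.0086 without replicate 1 of the FGF6 group. Hoxc10 had 32.98, 32.6, and 28.97 CPM with Veh and 17.8, 19.4, and 18.5 CPM with FGF6 at 4 h and 45.6, 42.97, and 47.9 CPM with Veh and 31.9, 33.01, and 34.1 CPM with FGF6 at 24 h. No FGF6 library of Hoxc10 reached a vehicle library at any time, and the fall was -0.76 ± 0.062 at 4 h, -0.87 ± 0.059 at 8 h, and -0.46 ± 0.056 at 24 h on the log2 scale (edgeR adjusted p at most 6.24e-08). Hoxc8 and Hoxc9, both known as genes that mark white over brown fat, were lower at all 3 times, with log2 fold changes of -0.51 ± 0.12 and -0.56 ± 0.080 at 4 h. The call of Hoxc8 at 24 h was lost without replicate 1 of the vehicle group (adjusted p = 0.0704 by edgeR).

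The FGF6 effect on Hoxc6 and Hoxc5 shrank between 4 and 24 h. Hoxc6 showed 28.7, 28.1, and 26.9 CPM with Veh and 12.8, 11.9, and 11.4 CPM with FGF6 at 4 h. Its levels were 29.5, 32.3, and 33 CPM with Veh and 18.6, 18.6, and 19.6 CPM with FGF6 at 8 h and 30.8, 30.04, and 27.4 CPM with Veh and 28.5, 27.1, and 25.7 CPM with FGF6 at 24 h. The groups were far apart at 4 and 8 h and overlapped at 24 h, when the log2 fold change of -0.12 ± 0.058 did not pass (edgeR adjusted p = 0.0623) and turned to 0.17 with the offset. At 4 h, Hoxc5 had 5.64, 5.35, and 5.67 CPM with Veh and 1.37, 2.07, and 2.23 CPM with FGF6, which was a fall without overlap with a log2 change of -1.55 ± 0.14 (edgeR adjusted p = 6.62e-10). Hoxc5 and Hoxc10 share 166 exonic bases on the same strand, where reads could have gone uncounted. Hoxc4, the most anterior gene of the cluster, was instead higher at 24 h, by 0.43 ± 0.11 (edgeR adjusted p = 0.00101).

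In Hoxb, neighbouring genes took opposite courses. Hoxb9, the most abundant Hox gene of the line, stood at 81.3, 76.2, and 75.5 CPM with Veh and 40.01, 36.7, and 39.5 CPM with FGF6 at 4 h. The levels of Hoxb9 were 86.9, 78, and 79.3 CPM with Veh and 49.7, 48, and 44.2 CPM with FGF6 at 8 h and 87.2, 83.1, and 81.5 CPM with Veh and 84.4, 77.5, and 80.1 CPM with FGF6 at 24 h. The FGF6 libraries were far below vehicle at 4 h and the groups overlapped at 24 h, with log2 fold changes of -1.01 ± 0.052 and -0.06 ± 0.050 (edgeR adjusted p = 1.05e-14 and 0.3). The small value at 24 h turned to 0.24 with the offset and to 0.012 without replicate 1 of the vehicle group. Hoxb8, used to immortalize myeloid progenitors, had its largest fall at 8 h, with 18.5, 20.1, and 20.6 CPM with Veh and 9.83, 8.84, and 9.45 CPM with FGF6. There was no overlap, and the log2 fold change was -1.07 ± 0.085 (edgeR adjusted p = 2.66e-11).

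Hoxb7, between Hoxb8 and Hoxb6, was the only Hox gene that was higher at 8 h, and it was among the higher genes at 24 h. It had 16.96, 19.7, and 17.9 CPM with Veh and 19.97, 17.3, and 18.2 CPM with FGF6 at 4 h. At 8 h Hoxb7 had 15.9, 16.7, and 15.9 CPM with Veh and 23.5, 24, and 23.3 CPM with FGF6, and at 24 h 15.7, 15.9, and 15.3 CPM with Veh and 29.6, 30.4, and 33.5 CPM with FGF6. The groups overlapped at 4 h and were apart at 8 and 24 h, with log2 fold changes of 0.55 ± 0.065 and 0.99 ± 0.064 (edgeR adjusted p = 4.32e-08 and 3.57e-13). Hoxb6 was lower at 4 and 8 h, with a log2 change of -0.67 ± 0.076 and -0.36 ± 0.075, and at 24 h its log2 fold change was 0.04 ± 0.072 (edgeR adjusted p = 0.595). Hoxb5, a gene of gut neural crest, had 6.03, 5.87, and 7.58 CPM with Veh and 2.81, 3.38, and 3.29 CPM with FGF6 at 4 h. That was a fall without overlap, with a log2 change of -1.03 ± 0.15 (edgeR adjusted p = 2.11e-06), whereas at 24 h the groups overlapped.

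Hoxb4, which expands blood stem cells when overexpressed, was the member with the largest increase at 24 h. At 4 h it had 8.56, 9.67, and 8.08 CPM with Veh and 8.32, 7.78, and 7.52 CPM with FGF6. At 8 h the levels of Hoxb4 were 10.3, 8.33, and 10.3 CPM with Veh and 10.7, 9.85, and 11.3 CPM with FGF6, and at 24 h 9.88, 7.15, and 6.85 CPM with Veh and 15.2, 16.8, and 18.4 CPM with FGF6. The groups overlapped at 4 and 8 h, and at 24 h all FGF6 libraries were above all vehicle libraries, a rise of 1.07 ± 0.11 on the log2 scale (edgeR adjusted p = 3.72e-09). The more anterior Hoxb3 was lower at all 3 times, with -0.70 ± 0.094, -0.75 ± 0.097, and -0.41 ± 0.093, and Hoxb2 passed only at 8 h, with -0.45 ± 0.18. Exons of Hoxb3 share 2250 bases, and those of Hoxb2 953, with the antisense Hoxb3os, and reads of overlapping genes cannot be assigned without strand.

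In Hoxa, the largest early fall belonged to Hoxa7, which later rose above vehicle. The gene had 1.07, 1.76, and 1.57 CPM with Veh and 0.3698, 0.383, and 0.366 CPM with FGF6 at 4 h, from only 9 to 12 counts per FGF6 library. Hoxa7 had 2.62, 2.61, and 2.23 CPM with Veh and 1.66, 1.48, and 1.36 CPM with FGF6 at 8 h and 3.15, 3.35, and 3.15 CPM with Veh and 4.71, 4.86, and 5.29 CPM with FGF6 at 24 h. FGF6 libraries were below all vehicle libraries at 4 and 8 h and above them all at 24 h, with log2 fold changes of -1.97 ± 0.25, -0.72 ± 0.17, and 0.62 ± 0.14 (edgeR adjusted p = 1.42e-07, 6e-04, and 0.000436). The change of the effect from 4 to 24 h was 2.58 ± 0.285 on the log2 scale (edgeR adjusted p = 2.81e-08). Hoxa7 shares 586 exonic bases with the antisense Hoxaas3. Hoxa4 followed the same order of signs, with -0.96 ± 0.17, -0.29 ± 0.16, and 0.38 ± 0.16, of which that at 8 h did not pass and that at 24 h was marginal (edgeR adjusted p = 0.0356) and was lost with DESeq2 (adjusted p = 0.0609), without replicate 1 of the FGF6 group (0.056), and without replicate 3 of the vehicle group (0.0668).

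Hoxa2, which gives the second pharyngeal arch its identity, fell and stayed low. The levels at 4 h were 8.07, 6.89, and 7.38 CPM with Veh and 2.74, 2.55, and 2.64 CPM with FGF6. At 8 h Hoxa2 had 8.11, 9.79, and 8.56 CPM with Veh and 2.28, 2.39, and 1.44 CPM with FGF6, and at 24 h 12.6, 12.8, and 11.98 CPM with Veh and 2.85, 4.501, and 3.67 CPM with FGF6. No library overlapped between treatments at any time, with log2 fold changes of -1.50 ± 0.14, -2.09 ± 0.15, and -1.76 ± 0.13 (edgeR adjusted p = 1.74e-09, 2.77e-12, and 5.04e-12). Hoxa10, a gene of the lumbar level and the uterus, had 2.21, 1.33, and 2.04 CPM with Veh and 0.3698, 0.924, and 0.528 CPM with FGF6 at 4 h and 3.01, 2.05, and 1.85 CPM with Veh and 0.7295, 0.786, and 1.03 CPM with FGF6 at 24 h. Its libraries were low throughout, as few as 10 counts, yet did not overlap, with falls of -1.57 ± 0.29 at 4 h and -1.44 ± 0.27 at 24 h on the log2 scale (edgeR adjusted p = 4.86e-05 and 3.74e-05).

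Hoxa5, needed for lung development and active in fat precursors, had 11.7, 11.4, and 12.4 CPM with Veh and 4.696, 4.84, and 4.39 CPM with FGF6 at 4 h and 18.1, 17.2, and 19.8 CPM with Veh and 12.8, 13.1, and 15.8 CPM with FGF6 at 24 h. Both times were without overlap, and the fall shrank from -1.34 ± 0.096 to -0.40 ± 0.078 (edgeR adjusted p = 5.27e-12 and 5.69e-05). At 8 h, Hoxa3, a gene of the thymus and parathyroid primordia, had 7.04, 7.53, and 6.95 CPM with Veh and 2.57, 3.16, and 1.81 CPM with FGF6. FGF6 libraries of Hoxa3 were lower without overlap, with a log2 change of -1.49 ± 0.14 (edgeR adjusted p = 5.74e-10). Hoxa6 had 1.65, 2.04, and 1.702 CPM with Veh and 0.444, 0.733, and 0.894 CPM with FGF6 at 4 h, a fall without overlap with a log2 change of -1.39 ± 0.26 (edgeR adjusted p = 4.24e-05). Hoxa9, with at most 61 counts in a library, fell with a log2 change of -0.90 ± 0.26 at 4 h and -0.79 ± 0.24 at 8 h (edgeR adjusted p = 0.00381 and 0.00537), and at 24 h the groups overlapped. The call of Hoxa9 at 8 h was lost without replicate 2 of the FGF6 group (adjusted p = 0.0528 by edgeR). Exons of Hoxa2 and Hoxa3 share 267 and 482 bases with Gm28308 on the same strand, where reads could have gone uncounted, and Hoxa3 shares 1529 exonic bases with antisense genes, among them Hoxaas2 and Hoxaas3, and Hoxa4 255 with Gm29430.

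**Figure D5:**
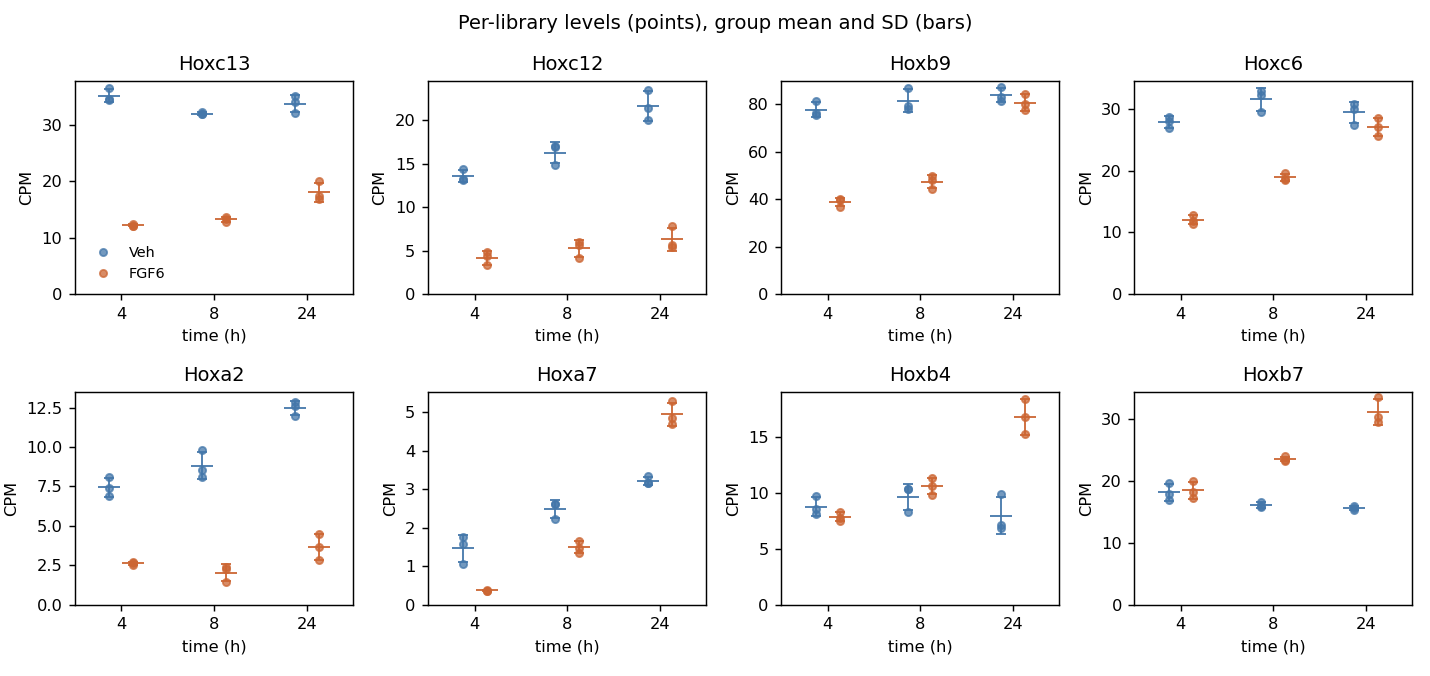
Levels of 8 Hox genes in CPM in every library (points), with group mean and SD (bars), by time on a categorical axis, for Veh (blue) and FGF6 (orange). Hoxc13, Hoxc12, and Hoxa2 stay below vehicle at all 3 times, Hoxb9 and Hoxc6 overlap vehicle at 24 h, and Hoxa7, Hoxb4, and Hoxb7 are above it at 24 h.

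The courses over time fell into few classes. Lower at all 3 times were 12 genes, and lower at 4 and 8 h but not called at 24 h were 8. The remaining 6 were Hoxa7, Hoxa4, Hoxb7, Hoxc4, Hoxb2, and Hoxb4, each with a course of its own. Tested as an interaction, the FGF6 effect moved upward from 4 to 24 h in 16 of 26 genes, against 28.3% of all genes, and downward in 0, against 25.2%. The move was at least 2-fold in 7 of the 16, which 3.41% of all genes showed. From 8 to 24 h it moved upward in 18 and downward in 0, against 22.6% and 22.5% of all genes. Neither 0 changed at an unadjusted p under 0.05, with limma-voom, or with DESeq2. From 4 to 8 h, 7 genes moved upward and 2 downward, against 15.5% and 15.1%. The 7 became 3 without replicate 1 of the vehicle group at 4 h, 4 without replicate 3 of the vehicle group at 8 h, and 4 without replicate 2 of the FGF6 group at 8 h, and the 2 became 0 without replicate 1 of the FGF6 group at 4 h or replicate 3 of the FGF6 group at 8 h. All 8 tested Hoxb genes, 4 of 9 Hoxa genes, and 6 of 9 Hoxc genes were among the 18.

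The vehicle libraries themselves changed over the same hours. From 4 to 24 h with Veh, 7 Hox genes rose, Hoxa2, Hoxa3, Hoxa5, Hoxa7, Hoxc9, Hoxc10, and Hoxc12, and 3 fell, Hoxb5, Hoxb7, and Hoxc8, against 30.9% and 30% of all genes. The largest rise was that of Hoxa7, 1.13 ± 0.17 on the log2 scale (edgeR adjusted p = 1.91e-06), and the largest fall that of Hoxc8, -0.74 ± 0.12 (edgeR adjusted p = 6.54e-06). These libraries are also the controls of the FGF6 comparisons at 4 and 24 h.

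Noncoding and other transcripts of the clusters were counted as well. Of 46 further annotated genes between the outermost coding Hox genes or overlapping them, 13 could be tested, of which 9 were lower at 4 h, 9 at 8 h, and 8 at 24 h, and 0 were higher at any time by edgeR, at an unadjusted p under 0.05, by limma-voom, or by DESeq2. Of all genes, 34.2% were lower and 28.6% higher at 4 h, 38.4% and 32.4% at 8 h, and 37.9% and 35.9% at 24 h. Hoxaas2, a long noncoding RNA antisense in the Hoxa3 region, had 80, 82, and 71 counts with Veh and 26, 26, and 30 with FGF6 at 4 h, and 176, 200, and 154 against 29, 28, and 23 at 24 h. It fell with a log2 change of -1.33 ± 0.19 at 4 h and with a log2 change of -2.68 ± 0.17 at 24 h (edgeR adjusted p = 1e-06 and 2.63e-13). Hoxb5os, antisense in the Hoxb5 region, had 391, 436, and 304 counts with Veh and 71, 69, and 72 with FGF6 at 24 h. Its fall of -2.36 ± 0.10 (edgeR adjusted p = 6.01e-17) stood beside a Hoxb5 value of 0.10 at that time, and the pair share 100 exonic bases. Hotair, the noncoding RNA transcribed between Hoxc11 and Hoxc12, was lower without overlap at all 3 times, with log2 fold changes of -1.24, -1.07, and -1.13. 5730596B20Rik, Gm11536, Gm15050, and Hoxb3os were also at least 2-fold lower at some time, by -2.17 at 8 h, -1.76 at 24 h, -1.46 at 8 h, and -1.30 at 8 h. Whether the counting used strand is not given in the sources used here, so the levels of antisense partners remain uncertain.

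Of the TALE cofactors, all 11 could be tested. At 4 h 1 was higher and 6 were lower (28.6% and 34.2% of all genes), at 8 h 1 and 6 (32.4% and 38.4%), and at 24 h 2 and 7 (35.9% and 37.9%). Tgif1, a TALE repressor of TGF-beta signaling, had 1509, 1685, and 1601 counts with Veh and 7988, 9145, and 7345 with FGF6 at 4 h, a rise of 2.52 ± 0.042 on the log2 scale (edgeR adjusted p = 1.8e-24) that was still 2.28 ± 0.042 at 24 h. Pknox2, a MEIS-related partner, fell by a growing amount, with log2 fold changes of -0.59, -1.62, and -2.51 at the 3 times (edgeR adjusted p at most 6.8e-09). Pbx4 was at least 2-fold lower at 8 and 24 h, by -1.56 and -1.25. No other cofactor reached 2-fold.

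Among 33 regulators of the clusters, 28 were tested, and 9 were higher and 13 lower at 4 h (28.6% and 34.2% of all genes), 13 and 13 at 8 h (32.4% and 38.4%), and 12 and 11 at 24 h (35.9% and 37.9%), shares near those of all genes at 24 h. Phc2, a subunit of Polycomb repressive complex 1, was higher at each time, by 1.31 ± 0.042, 1.61 ± 0.043, and 1.28 ± 0.042 (edgeR adjusted p at most 5.67e-19). Jarid2, a subunit of Polycomb repressive complex 2, was higher by 1.21 ± 0.052 at 4 h and 0.30 ± 0.055 at 24 h. Kdm6b, a demethylase that removes the Polycomb mark, was higher by 1.18 ± 0.051 at 4 h and lower with a log2 change of -0.38 ± 0.054 at 24 h (edgeR adjusted p = 2.62e-16 and 5.43e-07). Ezh1, a Polycomb methyltransferase, was lower with a log2 change of -1.02 ± 0.071 at 8 h. Cdx2 and Cdx4, caudal activators of the clusters, were listed at 0, as was Men1. Whether these values of 0 reflect absent RNA or reads that were not counted was not tested.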

How the data were processed

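RNA was sequenced from 18 libraries of the preadipocyte line. Per the labels, the authors aligned reads to GRCm38 with STAR and the deposited table holds whole-number counts per gene from featureCounts (Subread). The annotation release, strand setting, and treatment of multimapping reads are not given in the sources used here. Library totals ranged from 24327816 to 33471980 counts. Genes were kept with edgeR's filterByExpr, scaled by TMM (factors 0.951 to 1.05), and fitted in 1 quasi-likelihood model with 6 group means, from which FGF6 was compared with Veh at each time, the effects between times, and Veh at 24 h with Veh at 4 h (edgeR 4.0.16, R 4.3.3, Benjamini-Hochberg adjustment over 15071 genes). CPM used the TMM-scaled totals, and RPKM the summed exon length. The SE was the log2 fold change divided by the square root of F. On simulated data for the 24 h comparison, 165 of 196 changed genes were recovered (84.2%), with 13 false calls, over 14698 genes. Only those genes differed in the simulation, whereas most genes were called in the data. It therefore does not show how the scaling and the fit behave with changes that wide.

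Per-library values were given for the 6 Hox genes with the highest vehicle RPKM and for those with an FDR under 0.05, at least 2-fold change, and no overlap at any time, where a group mean was at least 0.5 CPM. The per-library values of Hoxb7, outside that rule, and the promoters shown were chosen after the values were seen. The members and lists were chosen with earlier results of these data known. Alternatives were other scalings, filters, thresholds, limma-voom 3.58.1, DESeq2 1.42.0, fewer libraries, a replicate block, and a GC and length offset. An exact permutation test of 3 against 3 libraries cannot go below p = 0.1 and was not used. Values of 1 tested Hox gene are not reported here, although it is included in the counts, sums, and medians, and it is not drawn in plots of single genes.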

Additional observations from a re-analysis of the deposited data

Results flagged for a closer look

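In 43 cases the FGF6 effect on a Hox gene differed between times by edgeR's interaction test at an FDR under 0.05. Groups of 3 libraries were too small for the test of single outlying samples. Values are differences of the log2 fold change, later minus earlier time.

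From 4 to 24 h the effect moved upward in 16 genes. In Hoxa the differences were 1.33 for Hoxa4, 0.94 for Hoxa5, 1.08 for Hoxa6, and 2.58 for Hoxa7. In Hoxb they were 1.23 for Hoxb4, 1.13 for Hoxb5, 0.71 for Hoxb6, 0.97 for Hoxb7, 0.53 for Hoxb8, and 0.95 for Hoxb9. In Hoxc they were 0.64 for Hoxc4, 1.13 for Hoxc5, 1.09 for Hoxc6, 0.30 for Hoxc10, 0.49 for Hoxc11, and 0.63 for Hoxc13.

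From 8 to 24 h it moved upward in 18 genes. The differences were 0.94 for Hoxa3, 0.66 for Hoxa4, 0.84 for Hoxa5, and 1.34 for Hoxa7. In Hoxb they were 0.72 for Hoxb2, 0.34 for Hoxb3, 0.94 for Hoxb4, 0.95 for Hoxb5, 0.40 for Hoxb6, 0.45 for Hoxb7, 0.75 for Hoxb8, and 0.72 for Hoxb9. In Hoxc they were 0.71 for Hoxc4, 1.00 for Hoxc5, 0.62 for Hoxc6, 0.41 for Hoxc10, 0.67 for Hoxc11, and 0.37 for Hoxc13.

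From 4 to 8 h the effect moved upward by 0.67 for Hoxa4, 1.24 for Hoxa7, 0.31 for Hoxb6, 0.53 for Hoxb7, 0.23 for Hoxb9, 0.47 for Hoxc6, and 0.25 for Hoxc13. It moved downward by -0.60 for Hoxa2 and -0.64 for Hoxa3.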

How the results depend on the processing

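At 4 h, 12 of the 22 lower genes were also at least 2-fold lower, and at 8 h 9 of the 23. With that fold, higher genes numbered 0 at 8 h and 1 at 24 h, and lower genes 3 at 24 h. The GC and length offset gave 2 higher genes at 8 h, and 11 higher and 7 lower at 24 h. With it, 53.0% of all called genes were higher at 8 h and 60.3% at 24 h. With at least 2-fold, the effect moved upward in 1 gene from 4 to 8 h, 1 from 8 to 24 h, and 7 from 4 to 24 h, the last against 3.41% of all genes. It moved downward from 4 to 8 h in 0. The downward count from 4 to 8 h was 1 with library size only, 1 with limma-voom, and 4 at an FDR under 0.25, and leaving out 1 library gave 0 to 3 downward and 3 to 7 upward. In vehicle from 4 to 24 h, 11 genes rose at an FDR under 0.25, and 1 rose and 0 fell by at least 2-fold. For the other 2-fold counts between times, those in vehicle, and those at an FDR under 0.25, the share of all genes is not given. Those counts therefore show only how the Hox calls depend on the threshold. Values near 0 changed sign for 5 genes. Hoxa9 at 24 h was 0.052 with the offset, and -0.27 to 0.10 with 1 library left out, above 0 without replicate 3 of either group. Hoxb7 at 4 h was -0.081 with library size only, -0.037 with upper-quartile factors, and -0.028 to 0.093 with 1 library left out, below 0 without replicate 1 of FGF6 or Veh. At 24 h, the offset gave 0.24 for Hoxb9, 0.17 for Hoxc6, and 0.22 for Hoxc11, and leaving out 1 library gave -0.059 to 0.012 for Hoxb9 and -0.098 to 0.0086 for Hoxc11. The cause was not tested. Same-numbered libraries did not deviate together (correlations -0.0275 to 0.0486), and the replicate block left the FGF6 counts at 22 lower, 1 higher and 23 lower, and 5 higher and 12 lower, with 8 vehicle genes higher in place of 7. Of single-gene values, 751 kept direction and side of the threshold under other settings, 7 gained and 14 lost the call in the same direction, and 6 changed sign. Among those that changed sign, Hoxb9, Hoxc6, and Hoxc11 at 24 h also gained a higher call with the offset. With 1 library left out, 1374 kept direction and side, 4 gained and 20 lost the call, and 6 changed sign. Depth limits Hoxa7, Hoxa9, and Hoxa10, with as few as 9, 21, and 10 counts.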

Other observations

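Most of the other homeobox and T-box factors of position that were tested were lower with FGF6. Of 17 listed, 12 were tested, and 10 were lower at 4 h, 10 at 8 h, and 11 at 24 h (34.2%, 38.4%, and 37.9% of all genes), with 0 higher at any time by edgeR, at an unadjusted p under 0.05, by limma-voom, or by DESeq2. Prrx2, a homeobox gene of limb and facial mesenchyme, had 688, 777, and 732 counts with Veh and 233, 265, and 198 with FGF6 at 4 h, and 522, 615, and 407 against 85, 98, and 75 at 24 h. Its fall went from -1.49 ± 0.073 at 4 h to -2.53 ± 0.090 at 24 h on the log2 scale (edgeR adjusted p = 3.01e-15 and 1.43e-18).

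Tbx18, a marker of mural and epicardial cells, had 2184, 2417, and 1813 counts with Veh and 641, 644, and 631 with FGF6 at 24 h, a fall of -1.70 ± 0.062 (edgeR adjusted p = 2.33e-18). Tbx5, the forelimb and heart factor, was lower by -1.34, -1.40, and -1.08 at 4, 8, and 24 h. At 24 h Meox1, a somite gene, fell by 2.36 ± 0.295 and Irx3 by 1.46 ± 0.187 on the log2 scale, whereas at 8 h Shox2 fell by 1.14 ± 0.053. Irx5 did not pass at 4 and 8 h, with -0.06 and -0.05 (edgeR adjusted p = 0.495 and 0.512), and was lower at 24 h, with -0.45. Emx2 did not pass at any time, with log2 fold changes of 0.13, -0.11, and -0.06.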
